A study of Homo sapiens with 15 samples.

Results

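Transcripts of 10 genes of cardiac calcium handling, RYR2, ATP2A2, PLN, SLC8A1, CASQ2, TRDN, JPH2, CACNA1C, SLN and HRC, were followed while H1 cells, a line of human embryonic stem cells, differentiated toward heart muscle. The genes were chosen by symbol, and all 10 were found among the 60605 genes of the table. Each had an FPKM (counts scaled by exonic length and by the total of the library) of at least 1 in at least 1 library, the filter used for tests. CASQ2 passed this filter only through 2 passaged libraries, and SLN through NP-ctrl, NP-IWP2 and 1 passaged library. The series held 15 bulk RNA sequencing libraries of wild-type H1 cells induced to mesendoderm on day 0 with CHIR99021, an activator of WNT signaling, and given insulin on day 1. The libraries of days 0, 1 and 2 were shared by all arms, and 3 arms were then sampled once each at days 3, 5, 7 and 10. NP-ctrl cells were not passaged and differentiated spontaneously. NP-IWP2 cells, also left in place, were treated with IWP2, which blocks secretion of WNT ligands. In the passaged arm the culture was taken up with EDTA at day 2 and seeded again at lower density with Y27632, and no WNT inhibitor was given. No library had a replicate, all came from 1 cell line, and the comparisons of passaged and of NP-IWP2 cells with NP-ctrl share the NP-ctrl libraries.

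In a working cardiomyocyte, depolarization opens the L-type calcium channel, whose pore is encoded by CACNA1C, and the entering calcium opens the ryanodine receptor RYR2 in the sarcoplasmic reticulum. JPH2 (junctophilin) holds the reticulum close to the plasma membrane, and TRDN (triadin), CASQ2 (calsequestrin) and HRC (a histidine-rich calcium-binding protein) act at or inside the release site. Relaxation follows when the SERCA2 pump encoded by ATP2A2 returns calcium to the reticulum, under the restraint of the small membrane proteins phospholamban (PLN) and sarcolipin (SLN), and when the sodium-calcium exchanger encoded by SLC8A1 moves calcium out of the cell. Sarcolipin is best known from atrial and skeletal muscle, and phospholamban from ventricular muscle. In GRCh38 coordinates the channel genes lay at chr12:1970772-2697950 (CACNA1C) and chr1:237042184-237833988 (RYR2). JPH2 lay at chr20:44106590-44187188, TRDN at chr6:123216339-123637093, CASQ2 at chr1:115700021-115768714 and HRC at chr19:49151198-49155396. The pump gene ATP2A2 lay at chr12:110280756-110351093, PLN at chr6:118548296-118561716, SLN at chr11:107707378-107719693 and SLC8A1 at chr2:40097270-40611053. Of these, SLC8A1 and CACNA1C shared exonic bases with antisense RNA genes, which reached at most 76 counts (SLC8A1-AS1) and 29 counts (CACNA1C-AS1) in any library.

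Total counts were between 13254723 and 20250115 per library. Counts mapping to the mitochondrial genome took from 1.53% (passaged day 3) to 10.3% (passaged day 10) of a library. Cardiomyocyte identity was checked with 10 sarcomere genes, whose summed FPKM on day 10 was 798, 2517 and 6397 in the NP-ctrl, NP-IWP2 and passaged libraries. No sarcomere gene was at 0 there. Markers of other cells moved with the arms as well. The summed FPKM of 4 endoderm and liver markers on day 10 was 2959, 862 and 0.41 in the same order, and in the passaged library APOA2 and FOXA2 were at 0. The 3 epicardial markers summed to 57.5, 74.8 and 0.09, with TCF21 at 0 in the passaged library. The 5 skeletal muscle markers, listed because sarcolipin and RYR3 are also used there, summed to at most 3.21 in any library of days 3 to 10, and MYOD1 and MYF5 were at 0 in all 3 arms on day 10. MYOG had 5, 3 and 4 counts there, and MYMK had 11 and 14 counts in NP-ctrl on days 7 and 10 and none in any other library of days 3 to 10. The 5 smooth muscle markers, with MYH11 at 0.11 or less on days 7 and 10, summed to 138, 231 and 585 on day 7 and to 105, 113 and 179 on day 10, in the same order of arms. The 5 neural markers summed to 10.3, 8.49 and 0.53 on day 10, with ELAVL4 at 0 in each arm. The 3 endothelial markers summed to 113, 98.7 and 11.97 on day 5 and 95.5, 104 and 120 on day 10. KDR made up nearly all of the endothelial sum, at 93.0, 100.4 and 119 on day 10. The other endothelial markers were lowest in the passaged library there, PECAM1 at 0.81, 1.29 and 0.30 and CDH5 at 1.62, 2.44 and 0.36. In bulk RNA, fewer cells of a type and less RNA per cell cannot be told apart, and the part of cell composition in the differences below was not tested.

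The 2 inhibitors of the pump had opposite orders across the arms on day 10, and they are shown first because their coding sequences are short enough to read whole. Both are given 5′ to 3′ with the start and stop codons in capitals. PLN has 52 codons before the stop (chr6:118558922-118559080, plus strand) and SLN has 31 (chr11:107707835-107707930, minus strand).
PLN: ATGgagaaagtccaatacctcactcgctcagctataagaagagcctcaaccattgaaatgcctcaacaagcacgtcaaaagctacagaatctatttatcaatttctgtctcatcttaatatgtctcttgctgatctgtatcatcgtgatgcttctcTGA
SLN: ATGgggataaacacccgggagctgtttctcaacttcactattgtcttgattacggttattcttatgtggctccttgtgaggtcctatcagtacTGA

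PLN was absent or nearly so until day 3, with at most 1 count in each of the 6 libraries of days 0 to 3. In NP-ctrl its FPKM was then 2.75, 4.24 and 8.10 on days 5, 7 and 10. In NP-IWP2 it was 4.66, 30.4 and 56.9 on the same days, and in the passaged arm 13.8, 17.1 and 74.6. The NP-ctrl library was the lowest of the 3 on every one of these days, and the passaged library was highest on days 5 and 10 while NP-IWP2 was highest on day 7. On day 10 the level was 9.21-fold higher in the passaged library than in NP-ctrl (exact 95% interval from the counts 8.22 to 10.3, given in the same way below) and 7.03-fold higher in NP-IWP2 (6.26 to 7.91).

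SLN had no count on days 0 to 3 in any library. In NP-ctrl its counts were 1, 3416 and 1884 on days 5, 7 and 10, an FPKM of 0.07, 284 and 154. In NP-IWP2 the counts were 0, 414 and 381, an FPKM of 0, 28.3 and 26.6. In the passaged arm they were 9, 21 and 3, an FPKM of 0.65, 1.55 and 0.22. The NP-ctrl libraries of days 7 and 10 thus stood above all others, and those 2 values were the highest FPKM of any of the 10 genes in the series. On day 7 the level was 184-fold higher in NP-ctrl than in the passaged library (120.2 to 298) and 10.1-fold higher than in NP-IWP2 (9.09 to 11.2). On day 10, with 3 counts in the passaged library, the ratio of NP-ctrl to passaged was 709.9 (242.5 to 3445). The endoderm and liver markers had the same order of arms on days 7 and 10, at summed FPKM of 328, 168 and 0.35 and of 2959, 862 and 0.41. Between these days the sums rose in NP-ctrl and NP-IWP2, while SLN fell in NP-ctrl and did not change beyond counting error in NP-IWP2. On days 3 to 10 the skeletal muscle marker MYMK was counted only in the 2 libraries where SLN was highest, at an FPKM of 0.81 and 1.02. Of the other skeletal muscle markers, MYOD1 and MYF5 were at 0 in both libraries. PAX7 on day 7 was lower in NP-ctrl (0.30) than in NP-IWP2 (0.94), and MYOG had 5, 3 and 4 counts in NP-ctrl, NP-IWP2 and passaged on day 10. The part of such cells in the SLN values was not tested.

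**Figure D1:**
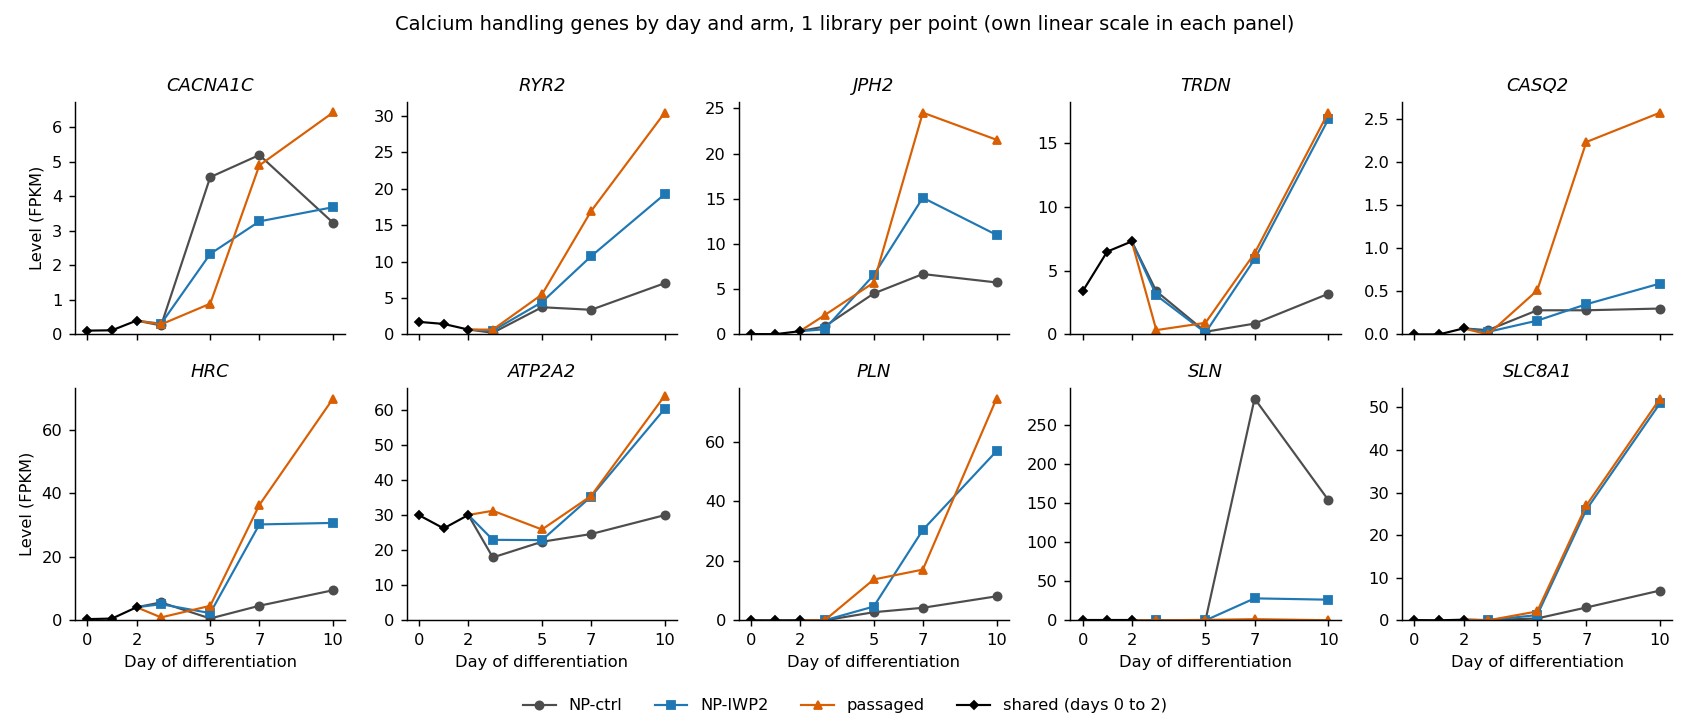
FPKM of the 10 calcium handling genes (vertical axes, linear, own scale in each panel) against day of differentiation, 1 library per point. Black diamonds are the shared libraries of days 0 to 2, and circles, squares and triangles are NP-ctrl, NP-IWP2 and passaged. SLN peaked in NP-ctrl at 284 on day 7, whereas PLN, RYR2, HRC and SLC8A1 were highest in the passaged library of day 10.

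ATP2A2, the pump itself, differed from both inhibitors in being present from the start. Its FPKM was 30.0, 26.2 and 30.1 on days 0, 1 and 2. In NP-ctrl it was 18.0, 22.4, 24.6 and 30.0 on days 3, 5, 7 and 10, so that day 10 equalled day 0 (ratio 1.00, 0.966 to 1.04). In NP-IWP2 it was 23.0, 22.9, 35.3 and 60.4, and in the passaged arm 31.3, 25.9, 35.5 and 64.1. NP-ctrl was the lowest of the 3 arms on each day, and the other 2 arms differed by 1.01-fold on day 7 (0.974 to 1.04) and 1.06-fold on day 10 (1.04 to 1.09). On day 5 NP-IWP2 and NP-ctrl did not differ beyond counting error (1.02, 0.980 to 1.06).

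The transcript ratio of inhibitor to pump therefore differed by arm within single libraries. PLN per ATP2A2, as a ratio of FPKM, was 0.27 in NP-ctrl on day 10 (0.240 to 0.302), 0.943 in NP-IWP2 (0.904 to 0.983) and 1.16 in the passaged library (1.12 to 1.21). SLN per ATP2A2 was 5.14 in NP-ctrl (4.88 to 5.42), 0.44 in NP-IWP2 (0.396 to 0.487) and 0.00339 in the passaged library (0.0007 to 0.00992). In NP-ctrl the SLN level was 19.1 times that of PLN on day 10 (16.9 to 21.5). In NP-IWP2 it was 0.466 times (0.418 to 0.519). In the passaged library, with 3 SLN counts, it was 0.00292 times (0.000601 to 0.00853), so that PLN was 343 times SLN. These are ratios between genes of different length, 2989 exonic bases for PLN and 906 for SLN, and depend on the length scaling of FPKM.

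**Figure D2:**
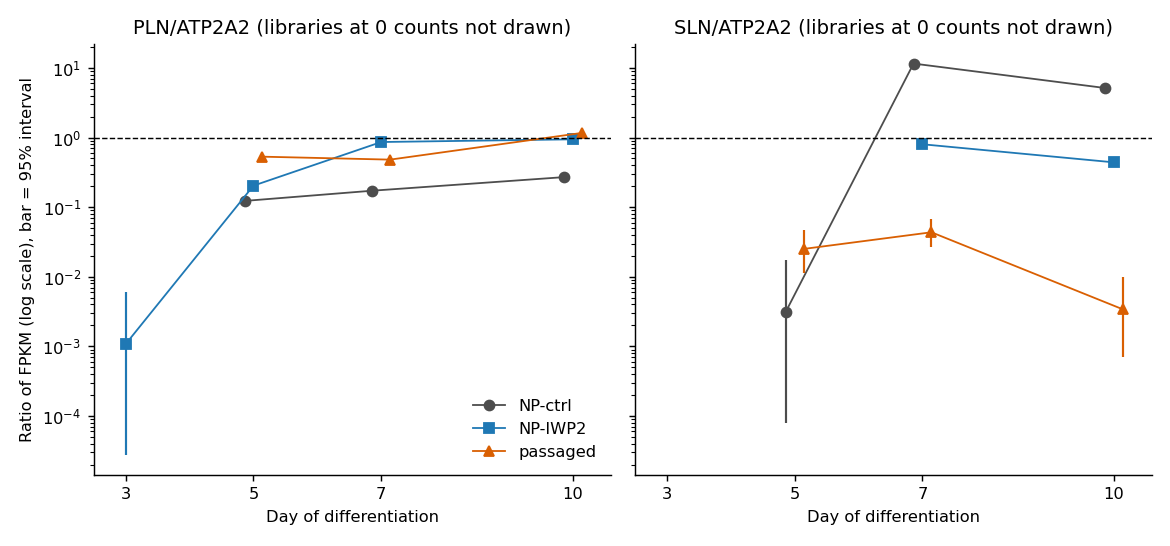
Ratio of the FPKM of PLN (left) and SLN (right) to that of ATP2A2 (vertical axis, logarithmic) on days 3 to 10, 1 library per point with its 95% counting interval. Libraries with no count of the inhibitor are not drawn. On day 10 PLN per ATP2A2 was lowest in NP-ctrl (0.27) while SLN per ATP2A2 was highest there (5.14).

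SLC8A1, the exchanger that removes calcium from the cell, was below an FPKM of 0.2 through day 3 in all libraries. NP-ctrl reached 0.46, 3.03 and 7.01 on days 5, 7 and 10. NP-IWP2 reached 1.24, 26.0 and 51.0, and the passaged arm 2.11, 27.0 and 52.1. The NP-IWP2 and passaged arms ran together on days 7 and 10, at ratios of passaged to NP-IWP2 of 1.04 (1.01 to 1.07) and 1.02 (1.00 to 1.04), and both stood far above NP-ctrl. On day 10 the passaged library was 7.43-fold above NP-ctrl (7.09 to 7.78) and NP-IWP2 7.27-fold (6.95 to 7.61).

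CACNA1C, the pore of the entry channel, behaved differently. From 0.11, 0.12 and 0.40 on days 0 to 2, its FPKM in NP-ctrl was 0.26, 4.55, 5.19 and 3.23 on days 3, 5, 7 and 10. It was 0.31, 2.33, 3.27 and 3.68 in NP-IWP2 and 0.29, 0.89, 4.89 and 6.42 in the passaged arm. NP-ctrl was highest on day 5, at 5.13 times the passaged level (4.57 to 5.77), the 2 did not differ beyond counting error on day 7 (passaged to NP-ctrl 0.943, 0.883 to 1.01), and the passaged library was highest on day 10 (1.99-fold, 1.85 to 2.13).

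RYR2, the release channel, was already detected in the undifferentiated cells. Its FPKM was 1.72 on day 0 and 0.67 on day 2 (2.56-fold lower, 2.19 to 2.99), and in NP-ctrl was 0.23, 3.73, 3.38 and 7.03 afterwards. In NP-IWP2 it was 0.51, 4.43, 10.7 and 19.2, and in the passaged arm 0.66, 5.48, 16.9 and 30.4. The order of the arms was the same on all 4 days, with passaged above NP-IWP2 above NP-ctrl. JPH2 was below 0.4 on days 0 to 2. NP-ctrl then reached 0.88, 4.53, 6.68 and 5.75, NP-IWP2 reached 0.57, 6.57, 15.1 and 11.01, and the passaged arm reached 2.13, 5.73, 24.5 and 21.5. Unlike RYR2, it was highest on day 7 in each of the 3 arms.

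TRDN and HRC had an early phase before the cardiac one. TRDN was at 3.38, 6.50 and 7.30 on days 0, 1 and 2, when the geometric mean of the 10 sarcomere genes, taken on FPKM + 1 and less 1, was 0.232, 0.161 and 0.289. It was then 3.39, 0.21, 0.85 and 3.19 in NP-ctrl, and 3.07, 0.14, 5.90 and 16.9 in NP-IWP2. In the passaged arm the low point came earlier, with 0.34, 0.91, 6.37 and 17.4. From day 2 to day 3 TRDN was 21.2-fold lower in the passaged arm (15.8 to 29.1) and 2.15-fold lower in NP-ctrl (1.95 to 2.38). In NP-ctrl the day 10 level was close to that of day 0 (ratio 0.943, 0.829 to 1.07).

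HRC went from 0.40 on day 0 to 4.13 on day 2. On day 3 it was 5.65 in NP-ctrl and 5.08 in NP-IWP2 but 0.94 in the passaged library, 6.04-fold below NP-ctrl (4.21 to 8.92). On days 5, 7 and 10 NP-ctrl was at 0.60, 4.60 and 9.48, NP-IWP2 at 2.29, 30.2 and 30.6, and the passaged arm at 4.58, 36.3 and 69.8. The passaged library thus was the lowest of the 3 arms on day 3 and the highest on each later day. CASQ2 stayed low throughout. It had no count on days 0 and 1, and its day 10 counts were 11, 25 and 105 for NP-ctrl, NP-IWP2 and passaged, an FPKM of 0.30, 0.59 and 2.57. The passaged level on day 10 was 8.45-fold that of NP-ctrl (4.53 to 17.4) and 4.37-fold that of NP-IWP2 (2.80 to 7.06), whereas NP-IWP2 and NP-ctrl did not differ beyond counting error (1.93, 0.917 to 4.35).

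**Figure D3:**
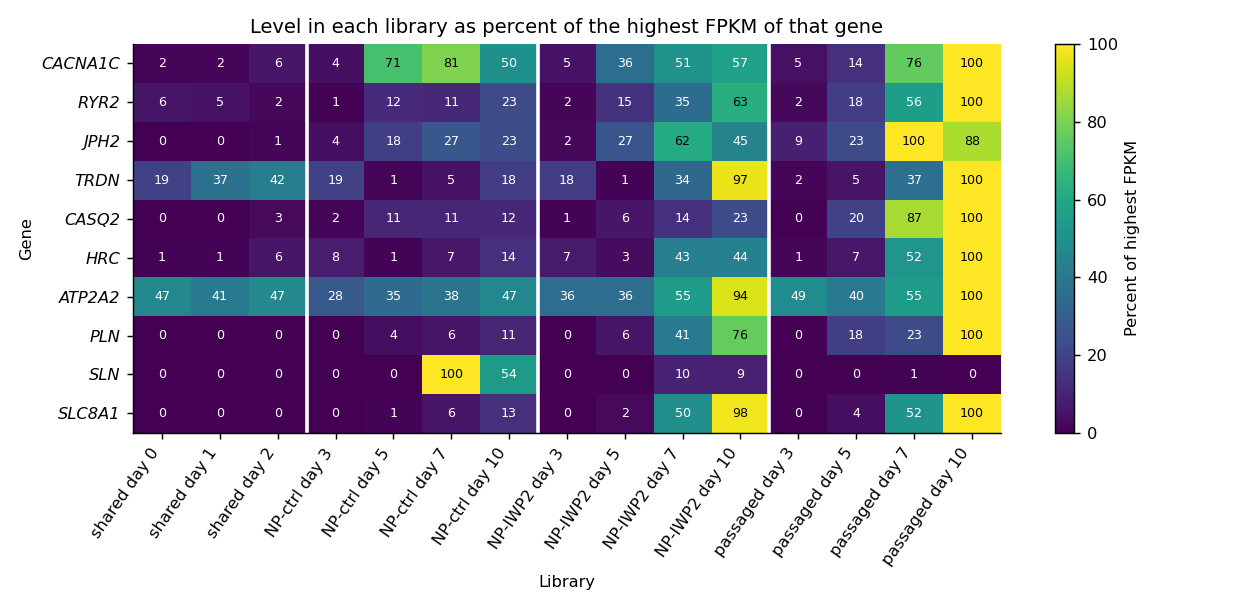
Level of each calcium handling gene (rows) in each of the 15 libraries (columns) as percent of its own highest FPKM. White lines part the shared libraries, NP-ctrl, NP-IWP2 and the passaged arm. On day 10, 9 genes were at 50% or more of their highest level in the passaged library, 6 in NP-IWP2 and 2 in NP-ctrl. How many of all genes were so is not given here.

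The order of onset was compared between arms, with onset as the first sampled day from which FPKM stayed at 1 or more through day 10. By day 5, 5 of the 10 genes had passed onset in NP-ctrl, against 7 with IWP2 and 6 after passaging. For comparison, 67.5%, 67.1% and 67.1% of all 21206 genes tested were at 1 or more on day 5 in these arms. ATP2A2 was present from day 0 everywhere, HRC passed onset on day 7 in NP-ctrl, day 2 in NP-IWP2 and day 5 in the passaged arm, and RYR2 and PLN passed onset on day 5 in every arm. JPH2 came on day 3 in the passaged arm and on day 5 in the other 2. SLC8A1 came on day 5 in the passaged and NP-IWP2 arms and on day 7 in NP-ctrl, and TRDN on days 7, 7 and 10. CACNA1C came on day 7 in the passaged arm and day 5 in both unpassaged arms. SLN had no onset in the passaged arm, and CASQ2 had one only in the passaged arm, on day 7. With TPM in place of FPKM, a looser threshold here, the counts by day 5 were 8, 7 and 9 for NP-ctrl, NP-IWP2 and passaged, so the order of the arms depended on the scale. The order for single genes did too. At an FPKM of 0.5 CACNA1C came on day 5, JPH2 on day 3 and HRC on day 1 in every arm. RYR2 came on day 0 in the passaged and NP-IWP2 arms and on day 5 in NP-ctrl, both at 0.5 and with TPM. With TPM CACNA1C came on day 2 in the passaged and NP-IWP2 arms and on day 5 in NP-ctrl. HRC then came on day 0, JPH2 on day 2 and SLC8A1 on day 5 in every arm. TRDN came on day 7 in both unpassaged arms at 0.5 and with TPM. In the passaged arm it came on day 5 at 0.5 and on day 0 with TPM. Onset was also taken as the first day from which the lower interval bound of the ratio to day 0 stayed above 2. The counts by day 5 were then 5, 6 and 7 for NP-ctrl, NP-IWP2 and passaged. For TPM and for this measure the share of all genes is not given, so their counts cannot be set against it. RYR2, at 1.72 and 1.44 FPKM on days 0 and 1, then came on day 10 in NP-ctrl and day 5 elsewhere. CACNA1C and SLC8A1 came on day 5 and JPH2 on day 2 in every arm, and CASQ2 on days 5, 7 and 5 in the same order.

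Passaged and NP-ctrl cells were compared over days 3, 5, 7 and 10 to ask how these genes differed after replating, which came with Y27632 and a lower density that cannot be told apart from it. PLN was higher in the passaged arm by 2.61 on the log2 scale (SE 0.42, edgeR adjusted p = 0.00712), RYR2 by 1.66 (SE 0.29, edgeR adjusted p = 0.0105) and JPH2 by 1.42 (SE 0.34, edgeR adjusted p = 0.0383). RYR2 and JPH2 were higher on 4 of 4 days, as were 9.13% of all genes, and PLN on 3, being at 0 counts in both arms on day 3. These 3 of 10 compare with 4.40% of all genes tested, or 1.64% for higher calls. The other 7 did not pass. SLN had an estimate of -6.61 (SE 1.62, edgeR adjusted p = 0.0555), SLC8A1 of 2.18 (SE 0.63, adjusted p = 0.0792), ATP2A2 of 0.69 (SE 0.19, adjusted p = 0.0697) and CASQ2 of 2.05 (SE 0.67, adjusted p = 0.113). HRC (1.88), TRDN (1.42) and CACNA1C (-0.18) had edgeR adjusted p values of 0.223, 0.46 and 0.884. At an unadjusted p under 0.05, 8 of the 10 were counted, against 19.2% of all genes, and CASQ2 is among them although only passaged libraries carried it past the filter. Each arm had 1 library a day, so the p values measure how the arm difference varied between days of 1 set of cultures. The count of genes called rested on single days: it was 0 without day 10, 1 (PLN) without day 7, 3 without day 5 (PLN, RYR2 and SLN, with JPH2 lost) and 8 without day 3, and it was 5 with DESeq2 and 0 with limma. The share of all genes called in each of these fits is not given here.

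NP-IWP2 and NP-ctrl were compared to ask what WNT inhibition did in cells left in place. No member passed the edgeR test (0 of 10, against 0.0189% of all genes), and 5 were at an unadjusted p under 0.05 where 4.76% of all genes were. DESeq2 called 1, PLN. The estimates were 2.26 for PLN (SE 0.42, edgeR adjusted p = 0.273), 2.06 for SLC8A1 (SE 0.63, adjusted p = 0.873), 1.05 for RYR2 (SE 0.28, adjusted p = 0.728), 0.44 for ATP2A2 (SE 0.19, adjusted p = 0.973) and -2.67 for SLN (SE 1.10, adjusted p = 0.973). RYR2, ATP2A2 and SLC8A1 were higher with IWP2 on 4 of 4 days, as were 8.33% of all genes, and PLN too, with 1 count against 0 on day 3. A fit of these 2 arms alone called 4 genes, PLN, RYR2, SLC8A1 and SLN, with SLN lower, and leaving out day 3 called 2, HRC and SLC8A1. How many of all genes these fits and DESeq2 called is not given here. Their calls thus cannot be set against the 0.0189% of the reported test.

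Passaged and NP-IWP2 cells, both arms with high sarcomere transcripts, were compared to ask whether their calcium handling genes differed. No member passed (0 of 10, against 1.33% of all genes), 4 were at an unadjusted p under 0.05 against 12.9% of all genes, and DESeq2 called 0. These 4 were CASQ2, again kept by the filter only through the passaged libraries (2.08, SE 0.64, edgeR adjusted p = 0.178), JPH2 (0.89, SE 0.33, adjusted p = 0.271), RYR2 (0.61, SE 0.27, adjusted p = 0.386) and SLN (-3.94, SE 1.52, adjusted p = 0.312). For SLC8A1, PLN and TRDN the estimates were 0.12 (SE 0.56), 0.34 (SE 0.40) and 0.38 (SE 0.80), so a 2-fold higher level in the passaged arm (a log2 of 1) lay within 2 SE of each. Whether the arm difference changed from day 3 to day 10 was tested as a slope, and no member passed in any of the 3 comparisons, where 6.15%, 0% and 1.02% of all genes did. At an unadjusted p under 0.05 the numbers were 6, 0 and 1. The share of all genes at that threshold is not given for the slope, so these numbers cannot be set against it. SLN had the steepest slope between passaged and NP-ctrl, at -2.63 per day on the log2 scale (SE 0.75, edgeR adjusted p = 0.0801).

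**Figure D4:**
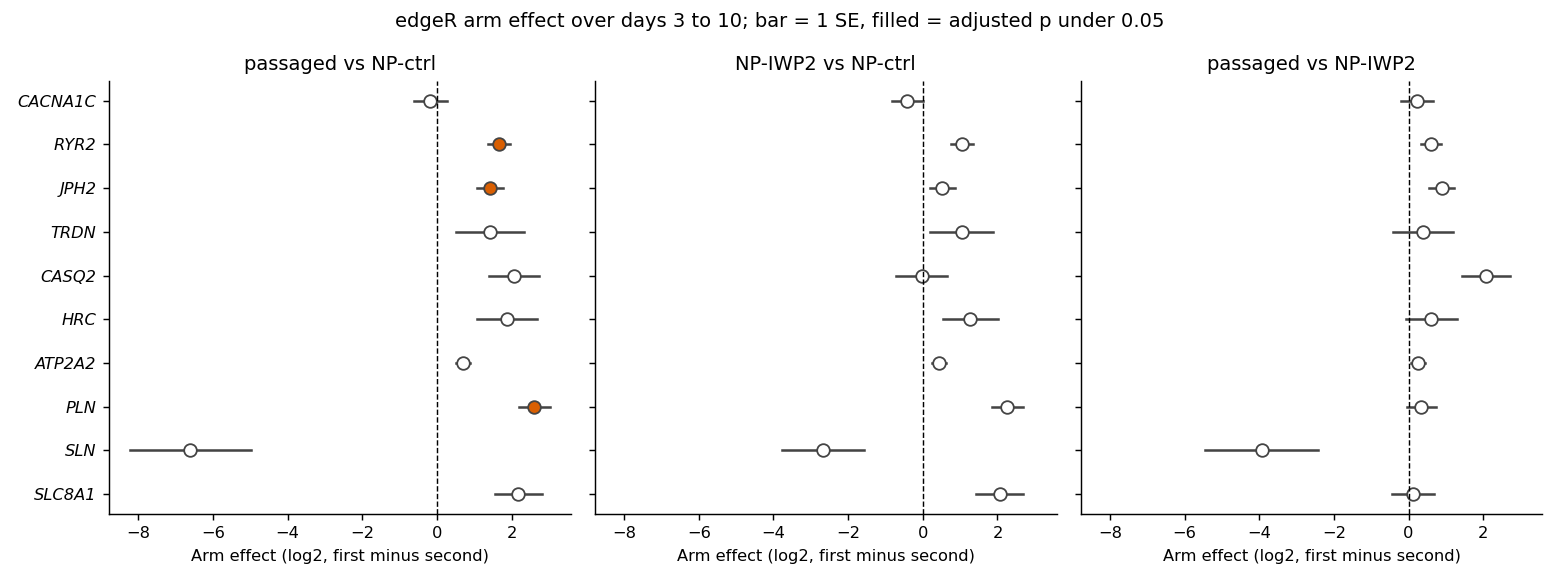
edgeR estimates of the arm effect over days 3 to 10 (horizontal axis, log2, first arm minus second) for the 10 genes in the 3 comparisons. Bars are 1 SE, and filled points had an adjusted p under 0.05 over all genes: PLN, RYR2 and JPH2 between passaged and NP-ctrl, and none in the other 2 comparisons.

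On single days the median over the 10 genes between passaged and NP-ctrl grew mostly after day 5, but single genes differed earlier in both directions. On day 3, with 4 genes higher and 4 lower in the passaged library, TRDN was 9.8-fold and HRC 6.04-fold lower there. On day 5, with 9 higher and 1 lower, HRC was 7.6-fold and PLN 5.0-fold higher and CACNA1C 5.13-fold lower. The median difference of log2(FPKM + 1) over the 10 genes between passaged and NP-ctrl was 0.00, 0.54, 1.76 and 1.85 at days 3, 5, 7 and 10. The median over all genes on day 10 was -0.09. On day 10, 8 of the 10 genes were higher by at least 1 and 1, SLN, was lower, where 5.67% and 11.7% of all genes were. CACNA1C, with a difference of 0.81, was the only other gene. CASQ2, among the 8 here and also counted against NP-IWP2 below, passed the filter only through passaged libraries. Between NP-IWP2 and NP-ctrl the day 10 median was 1.16, with 5 genes higher by at least 1 and SLN lower, against 3.71% and 5.64% of all genes. Between passaged and NP-IWP2 it was 0.51, though 0.30 in TPM and 0.18 on day 7, with CASQ2 and HRC higher by at least 1 and SLN lower, against 3.07% and 7.01%.

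**Figure D5:**
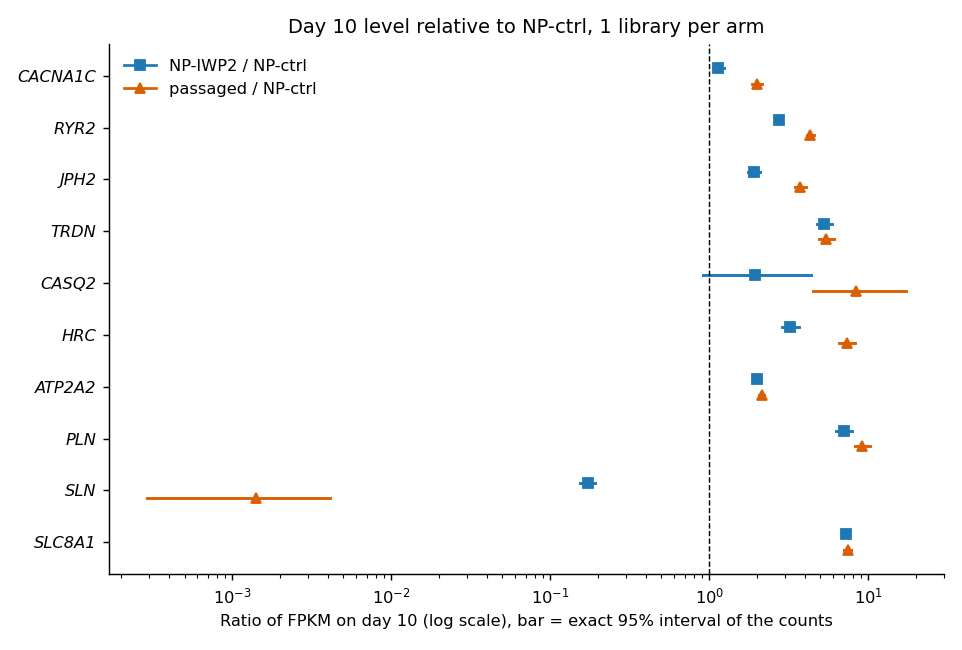
Ratio of FPKM to NP-ctrl on day 10 (horizontal axis, logarithmic) for each calcium handling gene, with NP-IWP2 as squares and passaged as triangles. Bars are exact 95% counting intervals of 1 library each. SLN was below 1 in both arms, and the interval for CASQ2 in NP-IWP2 (0.917 to 4.35) included 1.

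Because the arms differed in sarcomere transcripts too, the calcium handling genes were set against the 10 sarcomere genes. On day 10 the median log2(FPKM + 1) difference of the sarcomere list between passaged and NP-ctrl was 2.74, above the 1.85 of the calcium handling genes. On this scale PLN (3.05) and HRC (2.76) exceeded it, and SLC8A1 (2.73) was at the same size. Without the pseudocount, which shrinks low genes, 4 exceeded the sarcomere median of 2.76, PLN (3.20), CASQ2 (3.08), SLC8A1 (2.89) and HRC (2.88), an alternative added after the values were seen. ATP2A2 (1.07) and CACNA1C (0.81) were among those furthest below. Between NP-IWP2 and NP-ctrl the sarcomere median was 1.71, and PLN (2.67), SLC8A1 (2.70) and TRDN (2.09) exceeded it. Between passaged and NP-IWP2 it was 1.00, and CASQ2 (1.17) and HRC (1.16) exceeded it while SLC8A1 (0.03), TRDN (0.04) and ATP2A2 (0.09) were near 0. In these comparisons too, CASQ2 was a gene that passed the filter only through passaged libraries.

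Ratios within the release complex also moved with time and arm. TRDN per RYR2 was 10.9 on day 2, and on day 10 was 0.453 in NP-ctrl (0.406 to 0.505), 0.877 in NP-IWP2 (0.837 to 0.919) and 0.572 in the passaged library (0.547 to 0.598). CACNA1C per RYR2, entry channel per release channel, was 0.459 in NP-ctrl on day 10 (0.425 to 0.496), more than in NP-IWP2 (0.191, 0.180 to 0.203) and in the passaged library (0.211, 0.202 to 0.221). CASQ2 per RYR2 was 0.0844 in the passaged library (0.0689 to 0.102), 0.0305 in NP-IWP2 (0.0197 to 0.0451) and 0.0432 in NP-ctrl (0.0215 to 0.0776).

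PLN and SLC8A1 had a Pearson r of 0.946 over the 15 libraries on log2(FPKM + 1), which share days and arms and are not independent. The 250 bases before their start sites are shown. These were the only 2 of the genes searched with a match to AGATAA or TGATAA, forms of the site read by GATA factors. The choice was made after the matches were seen. The forms AGATAG and TGATAG were not searched. ATP2A2 holds TGATAG on the opposite strand, and an AGATAG in the SLC8A1 sequence is left unmarked. RYR2 was closer to PLN, with an r of 0.965, and had no match to any motif searched. The sequences are from RefSeq on GRCh38.p14, written 5′ to 3′ along the strand of the gene. Entries were found for 9 of the 10 genes. Capitals mark matches on either strand to AGATAA or TGATAA and to CACTTAA, read by NKX2-5. PLN is at chr6:118548046-118548295 (plus strand) and SLC8A1 at chr2:40512436-40512685 (minus strand), the most upstream of its 3 entries.
PLN promoter: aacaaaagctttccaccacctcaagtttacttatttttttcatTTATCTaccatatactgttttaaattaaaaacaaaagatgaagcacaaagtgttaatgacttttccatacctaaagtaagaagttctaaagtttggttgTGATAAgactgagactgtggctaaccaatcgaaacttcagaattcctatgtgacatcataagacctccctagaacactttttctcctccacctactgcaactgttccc
SLC8A1 promoter: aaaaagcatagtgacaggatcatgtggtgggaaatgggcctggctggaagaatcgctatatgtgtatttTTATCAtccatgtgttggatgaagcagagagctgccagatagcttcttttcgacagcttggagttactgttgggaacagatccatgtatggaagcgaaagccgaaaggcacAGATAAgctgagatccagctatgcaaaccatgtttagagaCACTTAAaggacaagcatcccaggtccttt
AGATAA and TGATAA were each matched in these 2 genes of the 9 and in 10.3% and 7.53% of 35116 promoter windows, which run from 250 bases before to 50 after the start. These motifs share the letters GATAA, but no match overlapped another. A gene was counted if any of its entries matched, and SLC8A1 had 3, whereas the percents are of single windows. Gene counts and percents thus cannot be set against each other directly. CACTTAA was matched in SLC8A1 and in 2.45% of windows. The MEF2 box was matched in ATP2A2 and CASQ2 (1.86% of windows), and TATAAA in another SLC8A1 entry (11.5%). The CArG box and AGGTGTGA were matched in none of the 9. These are matches of letters, and no binding was measured.

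Of a list of 55 other genes of excitation-contraction coupling and calcium transport, 53 were in the table and 46 passed the filter. Between passaged and NP-ctrl 4 passed the edgeR test, all higher, which is 4 of 46 beside 4.40% of all genes. SRL (sarcalumenin, a calcium-binding protein of the reticulum) was higher by 3.01 (SE 0.39, edgeR adjusted p = 0.00229), with day 10 levels of 1.50, 5.10 and 14.8 FPKM in the arms NP-ctrl, NP-IWP2 and passaged. AKAP6, which anchors protein kinase A, was higher by 2.06 (SE 0.39, adjusted p = 0.0154) and CACNB2, a subunit of the L-type channel, by 1.57 (SE 0.36, adjusted p = 0.0336). RYR3, a ryanodine receptor found outside the heart as well, was higher by 1.24 (SE 0.30, adjusted p = 0.0393), with its highest FPKM of 2.24 in the passaged library on day 5 and 0.49 on day 10. SRL also passed between passaged and NP-IWP2 (1.74, SE 0.34, edgeR adjusted p = 0.0364), 1 of 46 beside 0.415% of all genes for higher calls. None of the 46 passed between NP-IWP2 and NP-ctrl, where 5 were at an unadjusted p under 0.05, beside 4.76% of all genes. Leaving out 1 day ended each of these calls for at least 1 day: day 7 for SRL in both comparisons and for AKAP6, CACNB2 and RYR3, also day 10 for AKAP6 and CACNB2, days 3 and 5 for RYR3, day 5 for CACNB2, and days 5 and 10 for SRL against NP-IWP2.

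The highest FPKM on day 10 of the passaged arm outside the calmodulins belonged to genes used by all cells. CALR, a calcium-binding chaperone, was at 237, 160 and 164 in NP-ctrl, NP-IWP2 and passaged. PPP1CB, a phosphatase catalytic subunit, was at 52.4, 81.4 and 71.3, and PRKAR1A, a regulatory subunit of protein kinase A, at 45.6, 59.6 and 68.7. None of these 3 passed in any comparison. In the slope test 5 of 46 passed between passaged and NP-ctrl, beside 6.15% of all genes, and 3 of 46 between passaged and NP-IWP2, beside 1.02%. They are named here after their values were seen. ORAI1 passed in both (0.43 and 0.33 per day on the log2 scale, edgeR adjusted p = 0.00359 and 0.028). TMEM38A passed in the first with a positive slope, and ITPR2, ITPR3 and JPH4 with a negative one. CACNA1H and SLC8A3 passed in the second with a positive and a negative slope.

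The 10 protein-coding genes outside the list whose profile over the 15 libraries was most like the mean of the calcium handling genes were CTNNA3 (Pearson r 0.987), MYOZ2 (0.985), BVES, LDB3, SPTB, MAP3K20, IL17D, SLC1A4, KLHL41 and HSPB7 (0.979). MYOZ2 and LDB3 encode proteins of the Z-disc. The FPKM of MYOZ2 on day 10 was 7.49, 43.0 and 77.5 in the arms NP-ctrl, NP-IWP2 and passaged. Of the 10 sarcomere genes MYBPC3 came closest with an r of 0.974, and 19 genes lay above it. Among the calcium handling genes themselves, the 36 pairs without SLN had r between 0.133 and 0.965 with a median of 0.775, and the 9 pairs with SLN between 0.0797 and 0.544 with a median of 0.381. The libraries share days and arms, so these values describe the profiles only.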

How the data were processed

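RNA of 15 H1 libraries was sequenced by the authors, trimmed with Cutadapt 1.9.1, aligned with Hisat2 2.0.1 to hg38 and counted per gene with HTSeq 0.6.1, per the submitters' processing notes. The deposited counts are whole numbers per gene. The deposited FPKM values are these counts scaled by exonic length and library total by the authors, and recomputation differed by at most 0.005. The methods name a long-read kit (SMRTbell) beside short-read tools, so the kind of reads was not resolved and length-scaled values carry that doubt. Use of strand in counting was not stated, so a gene and its antisense partner cannot be told apart.

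Genes were kept where FPKM reached 1 in any library (21206 genes), and their counts were fitted with the quasi-likelihood test of edgeR 4.0.16 (R 4.3.3) to the 12 later libraries (days 3 to 10), blocked by day, with Benjamini-Hochberg adjustment over all genes. The scripts were tested on simulated data. Alternatives used DESeq2 1.42.0, limma 3.58.1 and the settings listed in the closing section. Single libraries were compared on log2(FPKM + 1), and ratios of FPKM have exact 95% intervals from the binomial share of the counts. With 1 library per arm and day, these intervals cover counting error only. PCR copies are not independent molecules, so the intervals may be too narrow even for that. The 10 genes and the lists were chosen with earlier results of these data known. Named genes were all 10 members, the listed pathway genes past the arm test, the 3 highest of that list on day 10 of the passaged arm other than calmodulins, and the 10 genes most like the members by correlation. Positions were checked against GENCODE 44, where CASQ2 and TRDN differed, and positions are those of the table.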

Additional observations from a re-analysis of the deposited data

How the results depend on the processing

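Each library stood alone, so variation between cultures was not measured beside counting error and the spread between days, and at the depth reached CASQ2 and the passaged SLN libraries rested on few counts. Between passaged and NP-ctrl, where 3 genes were called, the number was 3 with median-of-ratios scaling and without mitochondrial genes. It was 5 with DESeq2, 0 with limma on log2(FPKM + 1), 9 without the low-count filter, 1 with only the 2 arms compared and 0 without the day block. Leaving out 1 day gave 0 to 8 calls (8 without day 3, 3 without day 5, 1 without day 7 and 0 without day 10). Between NP-IWP2 and NP-ctrl, where none was called, it was 1 with DESeq2, 5 without the filter, 4 with only the 2 arms compared, and 0 to 2 when 1 day was left out. Between passaged and NP-IWP2 it was 3 without the filter and 0 to 1 when 1 day was left out. In the slope test 1 gene, SLN, was called between passaged and NP-ctrl with the rank of the day in place of the day. The share of all genes called under each alternative is not given here. The cause of these differences was not tested.

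The day 10 median between passaged and NP-ctrl (1.85) was 2.25 with a pseudocount of 0.1, 1.94 in TPM, 2.00 with median-of-ratios scaling per length and 1.76 on day 7. Between NP-IWP2 and NP-ctrl (1.16) these were 1.22, 1.15, 1.17 and 1.24, and between passaged and NP-IWP2 (0.51) 0.52, 0.30, 0.65 and 0.18. The sarcomere median was the larger in each comparison, so after subtracting it the 3 values were -0.88, -0.55 and -0.49. With TPM, 8 genes were past onset by day 5 in NP-ctrl.

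Estimates of single genes, none past the threshold in the test as reported, turned sign in 14 cases. CACNA1C between passaged and NP-ctrl was 0.054 without the day block and ranged from -0.69 to 0.44 when 1 day was left out (0.44 without day 5). Between passaged and NP-IWP2 it ranged from -0.13 (without day 10) to 0.56. CASQ2 between NP-IWP2 and NP-ctrl was 0.049 with limma, 0.11 with only the 2 arms compared and 0.30 without the block, and ranged from -0.48 to 0.42 when 1 day was left out (0.12 without day 3 and 0.42 without day 5). Between passaged and NP-IWP2, TRDN was -0.18 with limma and -0.0035 with only the 2 arms compared, and SLN was 0.63 with DESeq2. When 1 day was left out of that comparison, TRDN ranged from -0.18 to 0.68, PLN from -0.11 to 0.89 and SLC8A1 from -0.11 to 0.33, each lowest without day 5. PLN, RYR2 and JPH2 kept a positive estimate between passaged and NP-ctrl in 11 of 11 alternatives and passed the threshold in 8, 6 and 5 of them. The alternatives for the 4 pathway genes were added after their calls were seen, and SRL, AKAP6, CACNB2 and RYR3 passed in 7, 6, 5 and 5 of 11 between passaged and NP-ctrl. The labels give no replicate numbers, and the arms were paired by day through the day block of the reported test.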

Other observations

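Because SLN had a profile of its own, the genes most like it over the 15 libraries were listed after its values were seen, as a description with no test. The closest were DPYS (Pearson r 0.986), RUNX2 (0.971), RGCC (0.968), RSPO1 (0.967), AKR1D1 (0.966) and AQP1 (0.966), and no sarcomere gene was among the first 10. DPYS, an enzyme of pyrimidine breakdown, had an FPKM of 10.8, 3.29 and 0.02 on day 7 in NP-ctrl, NP-IWP2 and the passaged library. RUNX2, a transcription factor best known from bone, was at 5.59, 1.11 and 0.03 on day 10, and AQP1, a water channel, was at 147, 29.6 and 2.08 on day 10. RSPO1, an enhancer of WNT signaling, was at 17.1, 3.26 and 0 on day 10. The libraries share days and arms, and whether these transcripts come from the same cells as SLN was not tested.

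TMEM38A, a channel of the reticulum membrane that supports calcium release, was at 2.51, 13.7 and 20.1 on day 10 in NP-ctrl, NP-IWP2 and the passaged library, the same order as RYR2. A pair of calcium channel genes had another order. CACNA1D, a further L-type pore, was at 3.15, 8.37 and 2.57 on day 10, highest with IWP2, and CACNA1G, a T-type pore, was at 2.49, 2.03 and 0.15. Both were chosen after their values were seen, and neither passed the arm test.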
